A study of Mus musculus with 10 samples.

Results

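Scavenger receptors are described here through 10 genes, Msr1, Marco, Cd36, Scarb1, Scarb2, Cd68, Stab1, Cd93, Olr1 and Cd163, taken by name from a table of raw counts for 40789 genes. All 10 were found, and 8 of them had enough reads for the test across genes. RNA was taken from microglia, macrophages that live in the brain, after sorting from the cortex of 10 female C57BL6/J mice aged 2 to 3 months. Every mouse was CX3CR1+/egfp, so 1 copy of the fractalkine receptor gene carried a green fluorescent reporter in both groups, and cells with a high level of that fluorescence were collected. The LPS group (n = 5) received 4 mg/kg lipopolysaccharide, a component of bacterial cell walls, into the peritoneum, and the control group (n = 5) received saline. Cells were taken 24 hours after the injection, and each library came from 1 mouse, so the replicates are animals. The reporter follows the Cx3cr1 promoter, which is active in monocytes and other macrophages as well as microglia, and the labels do not give the level at which the gate was set.

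Scavenger receptors are cell surface and lysosomal proteins that bind polyanionic or modified ligands such as oxidised lipoproteins, bacterial wall components, dying cells and haemoglobin complexes, and most of them carry their cargo into the cell. The name covers proteins with unrelated folds, grouped into classes by structure. Class A holds trimeric collagen-like proteins such as those of Msr1 and Marco. Class B holds proteins of the CD36 family with membrane spans at both ends. In the brain these receptors are known for the uptake of debris, lipids and protein aggregates by microglia and border macrophages.

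Levels are given in CPM, the read count relative to a library size scaled by TMM factors, which correct for differences in RNA composition. A gene was called where the adjusted p of edgeR's quasi-likelihood test over all 13793 genes tested was under 0.05. Saline libraries held 11577295 to 15274421 counts each, and LPS libraries 12928007 to 15332121. All 10 microglial markers checked were detected, with a summed level of 64144 to 73980 CPM in saline and 17179 to 37902 CPM in LPS, and 7 of them were called lower. Fold changes fell with gene length. Over 5 length classes of equal size, the median log2 fold change was 0.70 in the shortest (SD over genes 0.99, 2639 genes) and -0.46 in the longest (SD 0.89, 2640 genes). Values with that trend removed from each library are therefore given where they differ.

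Of the 8 tested scavenger receptor genes, 5 (Msr1, Marco, Cd68, Stab1 and Scarb1) were called higher in LPS and none lower, with 3 not called. The same test called 45% of all genes tested, 22.4% higher and 22.5% lower. The median log2 fold change was 0.48 over the 8 genes and 0.00 over all genes tested. Marco passed the filter on low counts only through its LPS libraries, so it could hardly be tested without being called, and the count carries no weight as evidence about the family. Sizes differed widely. Msr1 and Marco went up by orders of magnitude, while Cd68, Stab1 and Scarb1 had fold changes of 1.41, 1.54 and 1.39. The groups did not overlap for Msr1, Marco and Cd68, each higher in LPS, where 29.8% of all genes tested had groups without overlap, and 14.1% had them with LPS higher. In bulk RNA, more cells that hold a transcript and more transcript per cell cannot be told apart.

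**Figure D1:**
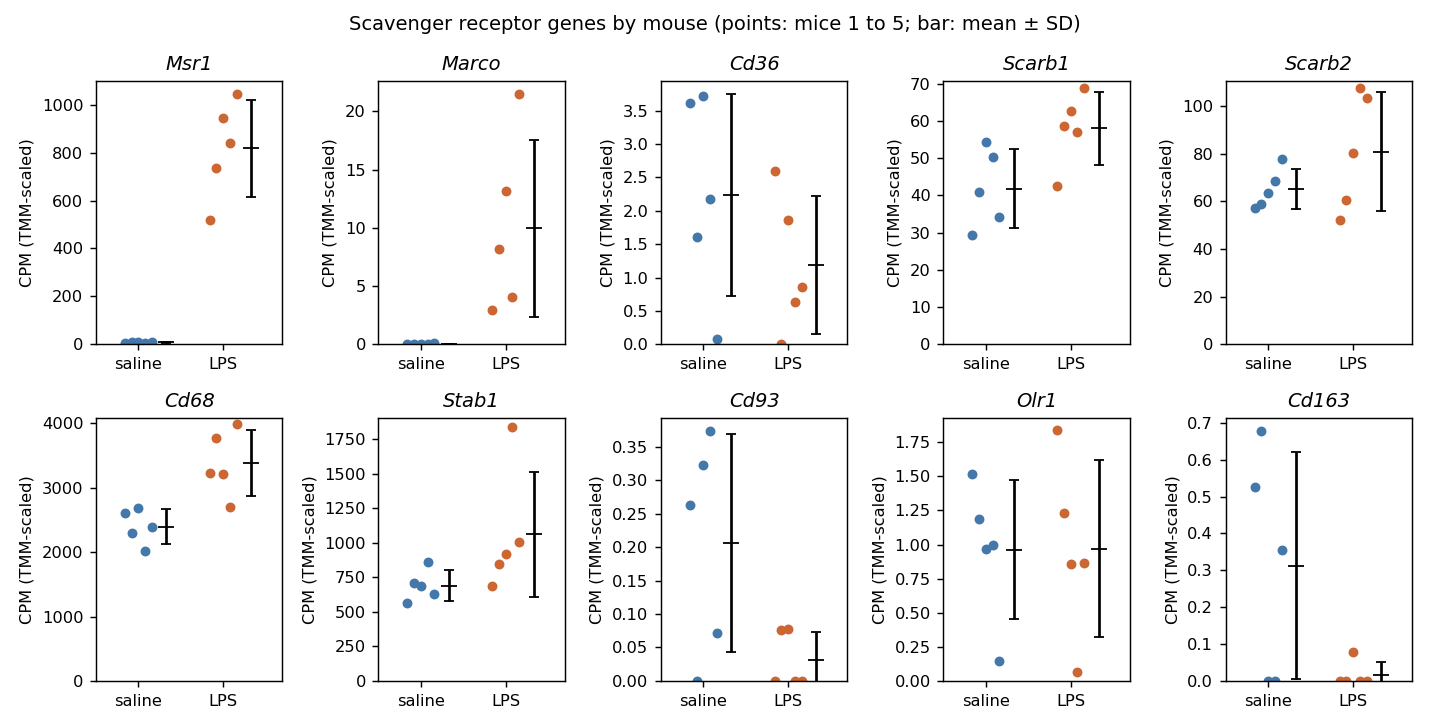
CPM of the 10 scavenger receptor genes in each mouse, with saline mice in blue and LPS mice in orange (replicates 1 to 5 from left to right) and the mean ± SD beside them, cut at 0. Msr1, Marco and Cd68 separate the groups, the LPS points of Stab1 include 1 mouse at 1842 CPM, and Cd93 and Cd163 stay below 1 CPM.

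The class A genes had the widest separation between groups. Msr1 encodes the macrophage scavenger receptor that binds acetylated lipoprotein and bacterial polyanions (Entrez gene 20288, chr8:39543232-39642750 on GRCm38). In saline mice 1 to 5 it had 6.32, 10.3, 10.6, 5.37 and 8.47 CPM. In LPS mice 1 to 5 it had 519, 738, 943, 842 and 1047 CPM. The lowest LPS mouse was far above the highest saline mouse. The mean went from 8.20 ± 2.32 CPM to 818 ± 203 CPM (SD, n = 5 each), a 99.7-fold higher level (log2 fold change 6.64 ± 0.26 SE, edgeR adjusted p = 2.04e-09). It was rank 1 of 13793 genes by adjusted p and rank 17 by log2 fold change. The titles carry mouse numbers that fall into 3 ranges, taken here as a possible batch although the labels do not say what the numbers mean. The ranges hold saline mice 1 and 2 with LPS mice 1 and 2, saline mice 3 and 4 with LPS mouse 3, and saline mouse 5 with LPS mice 4 and 5. Within them the difference in log2 CPM was 6.24, 6.94 and 6.77.

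Msr1 is a long gene by the authors' lengths, longer than or equal to 89.6% of 13199 genes, and its log2 fold change was 7.09 with the length trend removed. The 2 tested genes whose profile over the 10 libraries lay closest to that of Msr1 were Fn1 and Cd244. Their log2 CPM, each centred on its own mean, differed from that of Msr1 by a root-mean-square of 0.29 and 0.39, where the median over the 9790 genes compared was 3.36. Fn1, which encodes fibronectin, stood in the monocyte marker list used below. A shared source of Fn1 and Msr1 was not tested.

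Marco, a class A receptor for bacteria and particles known from macrophages of lung and spleen, was nearly without reads in saline (Entrez gene 17167, chr1:120474538-120505024). Saline mice 1 to 4 had no read, which allows up to 0.196 to 0.259 CPM per library, and saline mouse 5 had 1. LPS mice 1 to 5 had 35, 106, 169, 64 and 275 reads, or 2.93, 8.14, 13.1, 4.06 and 21.5 CPM. The gene thus had reads in all 5 LPS mice, widely spread among them. Over the groups, 649 reads against 1 gave a ratio of 639 with a 95% exact counting interval of 114 to 25289 (edgeR adjusted p = 2.93e-06). Reads amplified without molecular identifiers are not independent molecules, so such intervals cover counting error only. Without saline mouse 5 the level in LPS was at least 170-fold higher, set against 3 counts over the remaining saline libraries. LPS mice 5 and 3 were the highest for both Marco and Msr1, and LPS mouse 1 the lowest for both.

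The 250 bases before the RefSeq start of Marco (chr1:120505025-120505274, minus strand, GRCm38.p6) are shown because the gene went from at most 1 read to a measurable level. Capitals mark GAGGAA, the core that PU.1 binds, a factor of the myeloid lineage.
Marco: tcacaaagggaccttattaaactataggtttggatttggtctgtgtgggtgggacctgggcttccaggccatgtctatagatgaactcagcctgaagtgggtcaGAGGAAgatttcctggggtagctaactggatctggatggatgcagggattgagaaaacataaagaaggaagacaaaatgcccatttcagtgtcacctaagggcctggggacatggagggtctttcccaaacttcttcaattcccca
The match lies 146 to 141 bases before the start. On either strand, 23.3% of 32851 windows of the same length before RefSeq starts held GAGGAA, so it is common. No match was present to TGANTCA (the AP-1 site), TTGCNNAA (C/EBP), TCACGTG (the E-box of lysosomal genes), the interferon-stimulated response element or the NF-kB consensus. That says only that these letters are not in this window.

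The class B genes differed less between groups. Scarb1 encodes the receptor for high-density lipoprotein, which exchanges cholesterol esters with cells (Entrez gene 20778, chr5:125277087-125341094). It had 29.4, 40.8, 54.4, 50.5 and 34.3 CPM in saline mice 1 to 5 and 42.6, 58.8, 62.7, 57.2 and 68.8 CPM in LPS mice 1 to 5. The groups overlapped, with 4 LPS mice above all saline mice and LPS mouse 1 below 2 of them. The mean was 41.9 ± 10.5 CPM in saline and 58.0 ± 9.72 CPM in LPS, 1.39-fold higher (log2 fold change 0.47 ± 0.20 SE, edgeR adjusted p = 0.0472). This call lay just under the threshold. It was lost when saline mice 1, 2 or 5 or LPS mice 2, 3 or 5 were left out, each alone (adjusted p of 0.0725 to 0.124), while it stayed after removal of the length trend (log2 fold change 0.59, adjusted p = 0.0190). Within the 3 ranges of mouse numbers the log2 difference was 0.53, 0.26 and 0.87.

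Scarb2 encodes an abundant membrane protein of lysosomes (Entrez gene 12492, chr5:92441311-92505657). In saline it had 57.1, 59.1, 63.6, 68.7 and 77.8 CPM, and in LPS 52.3, 60.6, 80.2, 107.7 and 103.6 CPM. LPS mice 3, 4 and 5 lay above all saline mice and LPS mouse 1 below all of them. The means, 65.2 ± 8.30 and 80.9 ± 24.8 CPM, gave a log2 fold change of 0.31 ± 0.22 SE that was not called (edgeR adjusted p = 0.200). The spread between LPS mice was larger than between saline mice, with a coefficient of variation of 30.7% against 12.7%.

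Cd36 encodes a receptor for fatty acids, oxidised lipoprotein and thrombospondin (Entrez gene 12491, chr5:17781690-17888959). It was low in every library, with 55, 19, 46, 35 and 1 reads in saline mice 1 to 5 and 31, 0, 24, 10 and 11 reads in LPS mice 1 to 5. The means were 2.24 ± 1.52 and 1.19 ± 1.03 CPM (log2 fold change -0.92 ± 1.06 SE, edgeR adjusted p = 0.358). The mice of each group spread from at most 1 read to more than 30, and a difference was not detectable at this depth. Within the 3 ranges of mouse numbers the log2 difference was -2.02, -0.58 and 2.02, so its sign was not the same throughout.

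Cd68 encodes a heavily glycosylated protein of late endosomes and lysosomes that is used as a marker of phagocytic activity (Entrez gene 12514, chr11:69664213-69666170). It was the most abundant of these transcripts, at 2611, 2297, 2681, 2013 and 2385 CPM in saline mice and 3232, 3776, 3212, 2700 and 3990 CPM in LPS mice. The lowest LPS mouse, replicate 4, lay just above the highest saline mouse, so the groups nearly touched without overlapping. The mean rose from 2397 ± 266 to 3382 ± 510 CPM, 1.41-fold (log2 fold change 0.50 ± 0.12 SE, edgeR adjusted p = 0.0117). Cd68 is also a short gene, longer than or equal to 14.0% of 13199 genes. With the length trend removed its log2 fold change was -0.01 (adjusted p = 0.951). The median of its length class was 0.70 before that removal. Its 2 closest profiles were those of Utp11l and Drg1, at a root-mean-square of 0.09 each (median over genes 0.49).

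Cd68 is shown with its start region because, of the 7 windows found in the RefSeq table, each counted from the start that the table uses, it alone held more than 1 AP-1 site. The window is chr11:69666171-69666420, minus strand, and capitals mark TGANTCA and GAGGAA.
Cd68: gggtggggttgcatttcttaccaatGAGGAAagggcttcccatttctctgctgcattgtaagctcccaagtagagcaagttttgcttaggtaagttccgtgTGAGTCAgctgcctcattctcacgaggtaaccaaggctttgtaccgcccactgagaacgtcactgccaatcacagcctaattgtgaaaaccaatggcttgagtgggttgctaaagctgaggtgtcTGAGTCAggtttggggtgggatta
The TGANTCA matches lie 149 to 143 and 24 to 18 bases before the start, and the GAGGAA match 225 to 220. At least 1 TGANTCA was present in 6.75% of all windows and at least 2 in 0.338%. A TTGCNNAA match lies 43 to 36 bases before the start.

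Stab1 encodes stabilin, a large receptor that clears modified lipoprotein and matrix fragments in macrophages and sinusoidal endothelium (Entrez gene 192187, chr14:31139017-31168651). It had 567, 707, 685, 863 and 628 CPM in saline mice 1 to 5, and 687, 849.9, 918, 1842 and 1005 CPM in LPS mice 1 to 5. LPS mouse 4 stood apart above all others, while LPS mice 1 and 2 lay within the saline range. The mean was 690.1 ± 111 CPM in saline and 1061 ± 452 CPM in LPS, 1.54-fold higher (log2 fold change 0.62 ± 0.26 SE, edgeR adjusted p = 0.0390), and 1.25-fold without LPS mouse 4 (log2 fold change 0.33, adjusted p = 0.0817). Stab1 is a long gene, longer than or equal to 91.4% of 13199 genes, and the median of its length class was -0.46. With the length trend removed its log2 fold change was 1.07 (adjusted p = 0.000365), and 0.88 with LPS mouse 4 left out as well (adjusted p = 0.000101). The log2 difference within the 3 ranges of mouse numbers was 0.27, 0.26 and 1.12 before that removal. With those ranges as a term in the fit, Stab1 was not called (log2 fold change 0.51, adjusted p = 0.0776).

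LPS mouse 4 also had the largest share of counts in the longest length class among LPS mice, 13.7% against 9.56% to 11.7%. It had the lowest summed level of microglial markers, 17179 CPM, and the highest of neutrophil markers, 32.4 CPM. Their part in its Stab1 level was not tested. Stab1 overlaps Nt5dc2 on the opposite strand over 112 bases. Nt5dc2 had 435 reads in all libraries together, against 48074 in saline and 73014 in LPS for Stab1. The closest profiles were those of Lrrfip1 and Qsox1, at a root-mean-square of 0.14 and 0.15 (median over genes 0.59). The window before the start of Stab1 (chr14:31168642-31168891, minus strand) is shown as that of the third called gene with an entry, and GAGGAA, 30 to 25 bases before the start, is in capitals. The start that the table uses for Stab1 lies inside the gene bounds given above, so the last 10 bases of the window, as printed, are within those bounds.
Stab1: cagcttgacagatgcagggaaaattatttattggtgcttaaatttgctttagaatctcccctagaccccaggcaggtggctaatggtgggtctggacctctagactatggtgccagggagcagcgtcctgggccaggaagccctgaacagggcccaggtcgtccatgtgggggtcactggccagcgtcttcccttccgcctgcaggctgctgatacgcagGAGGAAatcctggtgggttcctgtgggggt
Of the 6 motifs searched only GAGGAA matched in the window of Stab1, as in that of Marco.

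The remaining genes had few reads. Olr1 encodes the lectin-like receptor for oxidised lipoprotein (Entrez gene 108078, chr6:129479150-129507350) and had 23, 14, 12, 16 and 2 reads in saline mice and 22, 16, 11, 1 and 11 in LPS mice. Its means of 0.963 ± 0.507 and 0.970 ± 0.647 CPM gave a log2 fold change of -0.01 ± 0.71 SE (edgeR adjusted p = 0.994). At this depth no difference was detectable, and the groups covered nearly the same range. Cd163, the receptor for haemoglobin bound to haptoglobin and a marker of perivascular macrophages (Entrez gene 93671, chr6:124304636-124330529), had 8, 8, 0, 0 and 5 reads in saline mice. In LPS mice it had 1 read, in mouse 3. The counts gave a ratio of 21.3 for saline over LPS with a 95% counting interval of 3.43 to 882, and an exact two-sided permutation p = 0.167 over mice. Cd163 was below the filter on low counts, and was called lower by edgeR without that filter (adjusted p = 0.0325) but not by DESeq2 (adjusted p = 0.0561).

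Cd93, a receptor of endothelium and immature myeloid cells linked to the clearance of dying cells (Entrez gene 17064, chr2:148436651-148443535), had 4, 0, 4, 6 and 1 reads in saline mice and 0, 1, 1, 0 and 0 in LPS mice. The ratio was 7.61 for saline over LPS with a 95% counting interval of 1.77 to 68.6 (exact two-sided permutation p = 0.119, where 0.00794 is the smallest p that 5 against 5 mice can give). The gene was also below the filter on low counts. For both Cd163 and Cd93 every library held fewer than 10 reads, and 7 of 10 libraries held at most 1.

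Levels of different genes were compared per gene length, with the authors' normalised RPKM, which list 8 of the 10 genes. In saline the order was Cd68 (1905 ± 232 RPKM, SD, n = 5), Stab1 (85.0 ± 12.6), Scarb2 (30.6 ± 3.93), Scarb1 (12.4 ± 3.10), Msr1 (1.09 ± 0.320), Cd36 (0.548 ± 0.371), Olr1 (0.266 ± 0.140) and Marco, listed at 0 in 4 mice and at 0.04 RPKM in 1. Msr1 and Cd36 overlapped between mice, as did Cd36 and Olr1, and the highest Marco value equalled the lowest of Olr1, while the genes from Cd68 to Msr1 were apart. In LPS, Cd68 was again first with 2746 ± 440.1 RPKM. Stab1 (133 ± 54.9) and Msr1 (109.97 ± 27.2) followed with overlapping values, then Scarb2 (38.7 ± 11.6), Scarb1 (17.5 ± 2.95), Marco (5.08 ± 3.90), Cd36 (0.298 ± 0.257) and Olr1 (0.276 ± 0.182). Scarb2 did not overlap with Msr1 or Scarb1 in LPS, and Cd36 and Olr1 overlapped.

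Msr1 moved from rank 10763 to rank 705 of 13199 genes by mean RPKM, while Cd68 was at rank 20 in both groups. Cd68 made up 93.6% of the summed RPKM of the 8 genes in saline and 90.0% in LPS, and Msr1 0.0534% and 3.60%. The ratio of Stab1 to Msr1 in RPKM was 60.8 to 149.9 in saline mice and 0.899 to 2.05 in LPS mice (exact two-sided permutation p = 0.00794, n = 5 and 5). Within class B, the ratio of Scarb2 to Scarb1 was 2.60 ± 0.721 in saline and 2.20 ± 0.518 in LPS (exact two-sided permutation p = 0.333), a difference within the spread between mice.

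**Figure D2:**
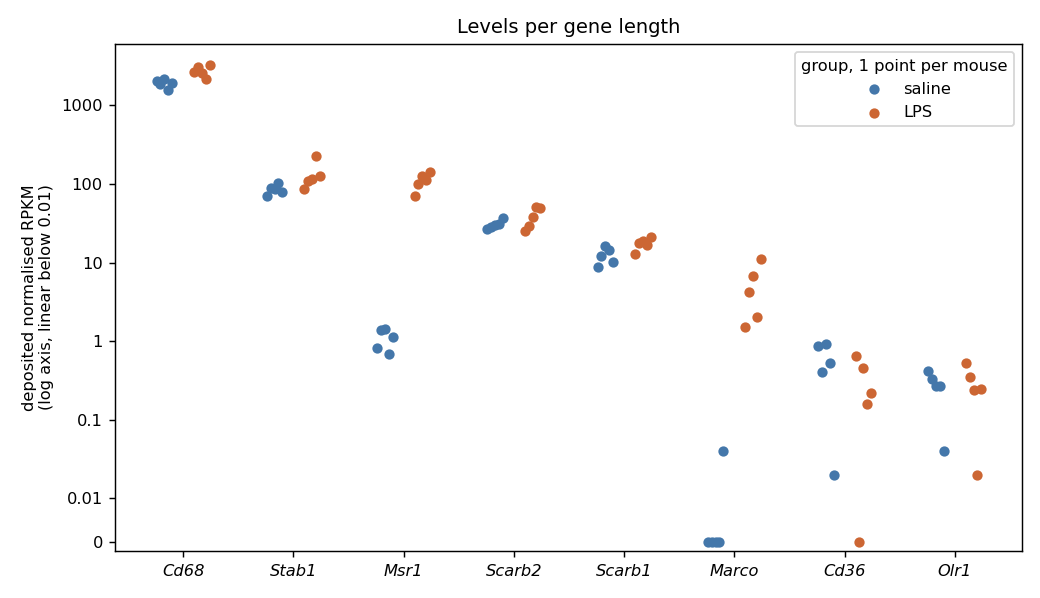
Deposited normalised RPKM of the 8 listed scavenger receptor genes in each mouse (saline blue, LPS orange), on a log axis that is linear below 0.01 and ordered by the LPS mean. Msr1 lies near 1 RPKM in saline and beside Stab1, near 100 RPKM, in LPS, while Cd68 stays above all others in both groups.

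The plot of alternatives shows how the fold changes of the 6 tested genes other than Msr1 and Marco moved with single settings. For Cd68, 11 of 12 alternatives and all 10 fits without 1 mouse were called, and the exception was the removal of the length trend. For Stab1, 9 of 12 alternatives and 5 of 10 fits without 1 mouse were called. For Scarb1 the numbers were 9 of 12 and 4 of 10. Scarb2, Cd36 and Olr1 were called in none of them. Msr1 and Marco were called in all 12 alternatives and in all 10 fits without 1 mouse. For Marco, with 1 read in saline, these calls were hardly avoidable and carry no weight as evidence. The size for Marco moved more than for any of the others, with log2 fold changes of 2.35 to 8.99 over the alternatives and 8.24 to 10.07 without 1 mouse. The low end came from log2(RPKM + 1) values, where the added 1 is far above the saline mean of 0.008 RPKM and limits the difference. On counts, limma-voom gave the smallest value, 7.41, and DESeq2 the largest, 8.99.

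**Figure D3:**
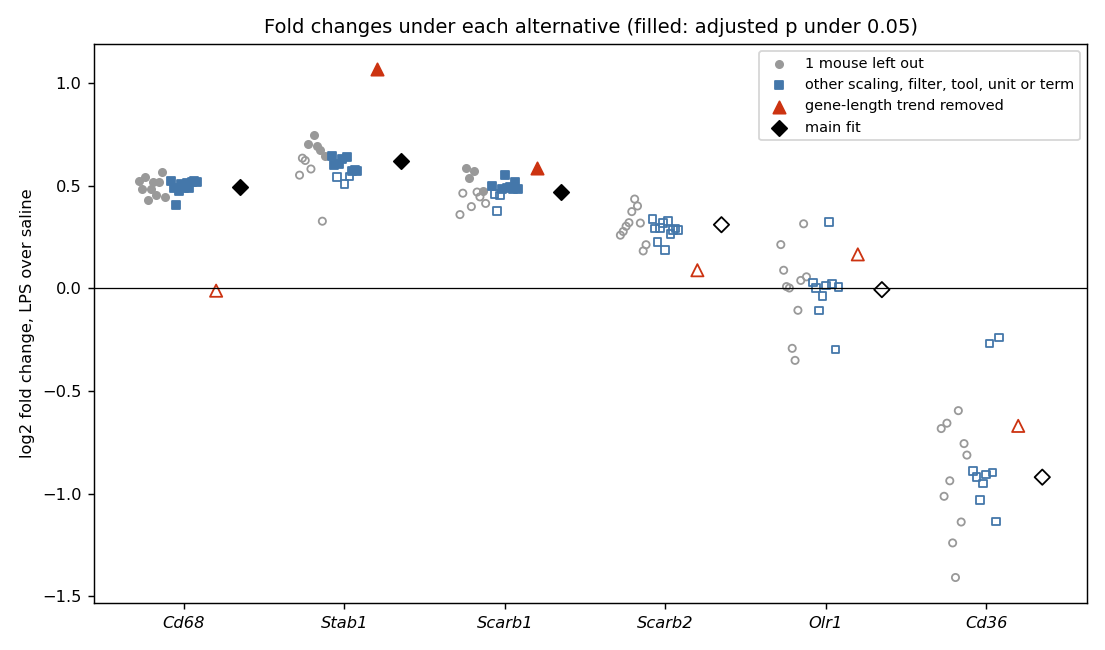
Log2 fold changes, LPS over saline, of 6 scavenger receptor genes in the main fit (black diamonds), with 1 mouse left out (grey circles), with the gene-length trend removed (red triangles) and under the other alternatives (blue squares), filled where the adjusted p was under 0.05. Removing the trend takes Cd68 to -0.01 and Stab1 to 1.07, and the values of Olr1 lie on both sides of 0.

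Several marker lists of other cells, which could pass the gate or carry these receptors, differed in summed level between groups. Whether such cells were among those collected was not measured. The border-associated macrophage list, all 10 genes detected, summed to 14.5 to 17.4 CPM in saline mice and 31.0 to 66.5 CPM in LPS mice. Siglec1, Cbr2 and F13a1 had means of 0.613, 0.740 and 0.594 CPM in saline and 14.7, 10.99 and 7.67 CPM in LPS. Like Marco they were near the filter on low counts in saline, so their calls carry no weight as a count. Mrc1 had 10.3 ± 1.84 and 7.32 ± 2.22 CPM and was not called. Nor were Folr2, at 1.59 ± 0.412 and 2.08 ± 1.54 CPM, and Ms4a7, at 1.75 ± 1.81 and 1.98 ± 0.663 CPM. Pf4 was low in both groups, at 0.538 ± 0.376 and 0.454 ± 0.349 CPM. The defining marker Lyve1 had 10 reads over all libraries and Cd209f had 25. The monocyte list, also 10 of 10 detected, summed to 14.4 to 23.2 CPM in saline and 78.2 to 219 CPM in LPS, with Ms4a4c and Fn1 the most abundant in LPS. F13a1 stands in both this list and the border-associated macrophage list, so the sums share a gene. Ccr2, which defines classical monocytes, was called lower, at 10.2 ± 2.93 CPM in saline against 2.45 ± 1.54 CPM in LPS, and Ly6c2 had no read in saline and 16 reads in LPS. The neutrophil list summed to 0.162 to 1.12 CPM in saline and 2.01 to 32.4 CPM in LPS, there led by Cxcr2 and S100a8. Each of the 3 sums differed between groups without overlap (exact two-sided permutation p = 0.00794, adjusted over 9 marker lists 0.0143, n = 5 and 5). In LPS, most of the macrophage sum came from Siglec1, Cbr2 and F13a1, and most of the monocyte sum from Ms4a4c and Fn1. Cxcr2 and S100a8 led the neutrophil sum. The p-values therefore rest on these few genes, and carry no weight as evidence about the lists as wholes.

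The endothelial list, with 11 of 12 genes detected and Cldn5 at 0 in every library, summed to 119 to 157 CPM in saline and 82.4 to 137 CPM in LPS (exact two-sided permutation p = 0.0317, adjusted 0.0408). Slc2a1 and Pecam1 made up most of that sum and moved in opposite directions. Slc2a1 went from 65.7 ± 9.14 to 88.6 ± 17.7 CPM and was called higher (edgeR adjusted p = 0.0358). Pecam1 went from 54.1 ± 10.3 to 7.05 ± 2.38 CPM and was called lower (edgeR adjusted p = 3.57e-07). The tight junction and vessel markers Cdh5, Flt1, Tek, Esam, Ly6c1 and Slco1a4 were each below 1 CPM in both groups, beside Cd93 at 0.206 ± 0.163 CPM in saline. Kdr went from 5.85 ± 1.38 to 2.37 ± 1.01 CPM and Ocln from 8.27 ± 2.21 to 4.65 ± 2.20 CPM, both called lower (edgeR adjusted p = 0.00478 and 0.0473). Among LPS mice the border-associated macrophage sum was highest in mice 5 and 3, as was the monocyte sum. These mice were also the highest for Msr1 and Marco. The low ends differed. LPS mouse 2 was the lowest for both sums, at 31.0 and 78.2 CPM, and LPS mouse 1 the lowest for Msr1 and Marco. The monocyte sum also includes Fn1, which was picked above by its likeness to Msr1. The neutrophil sum was highest in mice 4 and 5. What cells of these lists contributed to Msr1, Marco, Stab1, Cd163 or Cd93 was not tested.

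**Figure D4:**
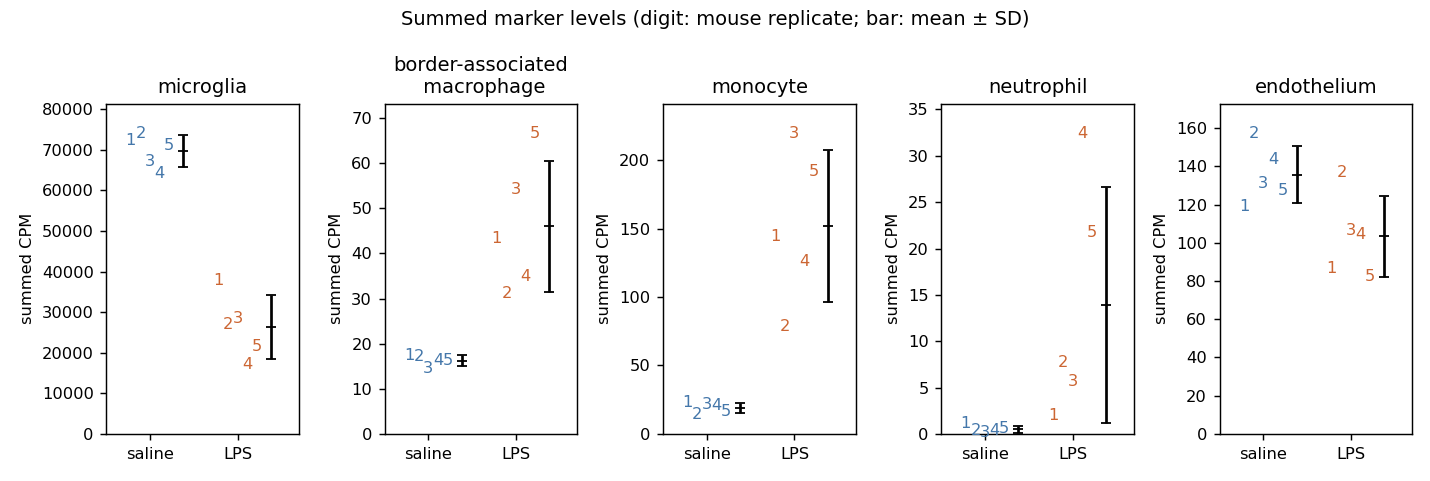
Summed CPM of 5 marker lists in each mouse, shown by its replicate number (saline blue, LPS orange), with the mean ± SD. The macrophage, monocyte and neutrophil sums of all LPS mice lie above those of all saline mice, at 31.0 to 66.5, 78.2 to 219 and 2.01 to 32.4 CPM, and the microglial sum lies below, at 17179 to 37902 CPM.

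Other receptors with scavenger function, from a list of 16 genes, were tested for 10 of them. Counts called in this and the following lists stand beside 22.4% of all genes tested called higher and 22.5% lower. Called higher were 3, namely Cxcl16, which encodes a membrane-bound chemokine that also binds oxidised lipoprotein, Cd14, the co-receptor for LPS, and Cd44, the receptor for hyaluronan. Cxcl16 went from 45.2 ± 3.67 to 192 ± 55.1 CPM (edgeR adjusted p = 2.26e-06), Cd14 from 1328 ± 224 to 2902 ± 606 CPM and Cd44 from 3.86 ± 1.80 to 16.3 ± 7.08 CPM. Called lower were 2, Megf11 and Lrp1. Lrp1, a large endocytic receptor for lipoprotein and protease complexes, went from 299.5 ± 72.1 to 195 ± 40.1 CPM (adjusted p = 0.0121). That call ended once the length trend was removed (log2 fold change 0.08, adjusted p = 0.604). The median log2 fold change of the list was -0.01. Scara3 had no read, and Scara5, Colec12, Stab2 and Megf10 had 1 to 4 reads over all libraries, as had Ssc5d.

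Genes that handle lipid after uptake moved in both directions, with 5 of 12 tested members called higher and 3 lower (median log2 fold change 0.16). Plin2, which coats lipid droplets, went from 70.8 ± 10.7 to 370.3 ± 211 CPM (edgeR adjusted p = 3.14e-05). Npc2, which hands cholesterol on inside lysosomes, went from 1058 ± 102 to 1893 ± 258 CPM, and Soat1, which esterifies cholesterol, from 109.7 ± 11.04 to 180.3 ± 25.0 CPM. The other risen members were Nceh1 and Abcg1. Those that fell were Acsl1, Npc1, the membrane partner of Npc2, and Lipa, the lysosomal lipase. Npc1 went from 158 ± 27.8 to 95.96 ± 28.8 CPM (adjusted p = 0.00674). Pparg, a nuclear receptor that can induce Cd36, had 22 reads over all libraries and was not tested. Abca1, which exports cholesterol, was not called (adjusted p = 0.554) but was called higher after removal of the length trend (log2 fold change 0.67, adjusted p = 0.000371).

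Haemoglobin and haem handling, the pathway that the Cd163 protein feeds, had 6 of 9 tested members called higher and 2 lower (median log2 fold change 1.01). Fth1, the ferritin heavy chain, went from 867 ± 146 to 4368 ± 1880 CPM (edgeR adjusted p = 5.73e-06) and Ftl1, the light chain, from 310.3 ± 48.4 to 626 ± 159.7 CPM. Both have many near-identical pseudogenes, so their counts are uncertain. Hmox1, which breaks down haem, went from 35.2 ± 18.7 to 137 ± 16.2 CPM and the bilirubin-forming reductase genes Blvra and Blvrb were also called higher. Hp, which encodes haptoglobin, the plasma protein that presents haemoglobin to the Cd163 receptor, went from 1.01 ± 0.519 to 32.9 ± 40.9 CPM (adjusted p = 0.000903). Slc40a1, the iron exporter, fell from 674 ± 137 to 133 ± 57.7 CPM (adjusted p = 9.04e-06), and Lrp1 was the other lower member.

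Partners in signalling had 3 of 11 tested members called higher and 5 lower (median log2 fold change -0.32). Tlr2, which can act with the Cd36 protein in sensing bacterial lipids, went from 119.02 ± 11.03 to 418 ± 165 CPM (edgeR adjusted p = 4.97e-05). Cd9, a tetraspanin that associates with the Cd36 protein, fell from 1871 ± 266 to 1097 ± 154 CPM (adjusted p = 0.000778). Mertk, a receptor for dying cells, fell from 865 ± 107 to 504 ± 122 CPM (adjusted p = 0.00171). The calls of Syk and Itgb1, both lower, and of Cd81, higher, ended with the length trend removed (adjusted p of 0.161, 0.514 and 0.849). The remaining called members were Itgb2, higher, and Tlr4, lower.

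Lysosomal partners of Cd68 and Scarb2 had 2 of 8 tested members called higher and 1 lower (median log2 fold change 0.08). Called higher were Cd63, a tetraspanin of late endosomes, which went from 143 ± 20.3 to 871 ± 258 CPM (edgeR adjusted p = 3.49e-07), and Ctsl, a cysteine protease, which went from 1220 ± 100.5 to 5636 ± 1383 CPM (adjusted p = 3.49e-07). Ctsd, an aspartic protease, fell from 31505 ± 2700.2 to 19951 ± 2604 CPM (adjusted p = 0.00126). The membrane proteins Lamp1 and Lamp2, relatives of the Cd68 protein, had 327 ± 44.2 and 382 ± 73.7 CPM, and 1056 ± 120.4 and 887 ± 67.9 CPM, in saline and LPS, and were not called. Across the 5 lists, read against 22.4% of all genes called higher and 22.5% lower, members thus changed in both directions.

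**Figure D5:**
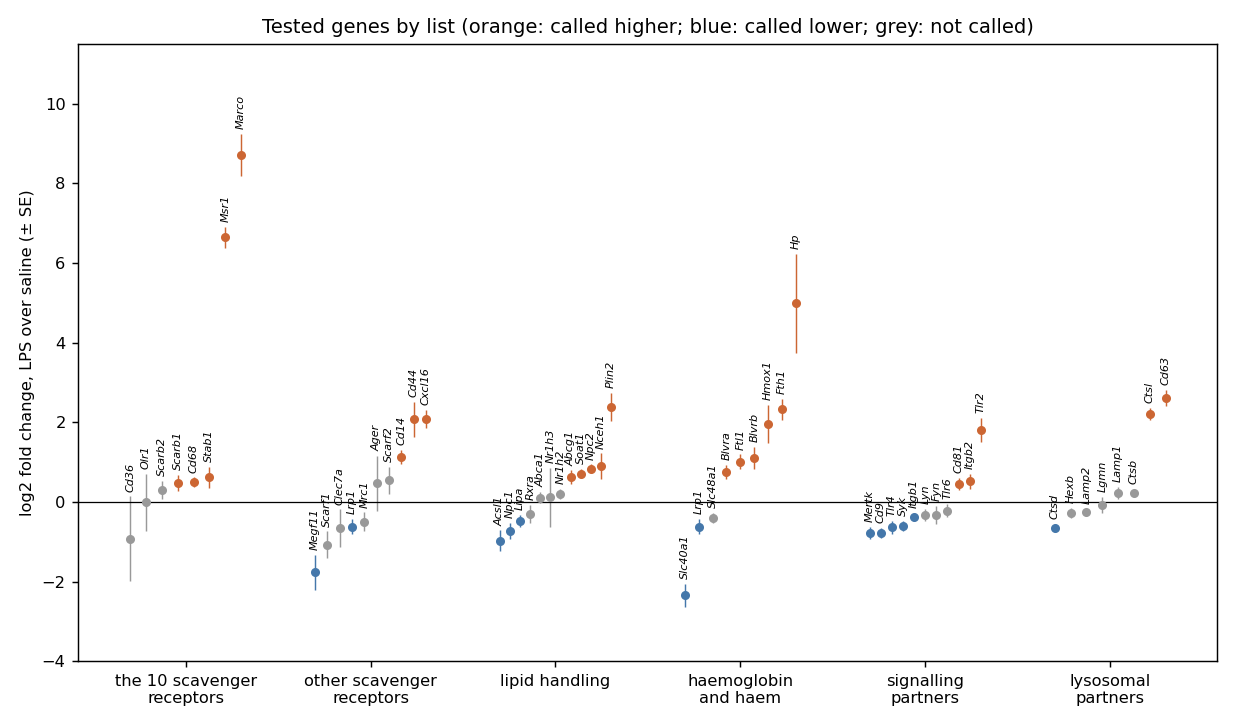
Log2 fold change ± SE, LPS over saline, of each tested gene of the 10 scavenger receptors and of 5 related lists (orange called higher, blue called lower, grey not called). Msr1 (6.64) and Marco (8.72, a fitted value that depends on the prior count since saline held 1 read) lie above every tested gene of the other lists, and each of those lists holds genes on both sides of 0.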

How the data were processed

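Amplified RNA of 10 sorted samples was sequenced. The authors deposited raw counts per gene, made with featureCounts on GRCm38 or mm10 per the submitters' processing notes. Not given in the sources used here are aligner, annotation and strand setting. The authors also deposited normalised RPKM. Each value equalled the count multiplied by a library factor and a gene factor (largest deviation 0.0859% for values of at least 10), and relative lengths came from the gene factors. The 1 row without a name held no counts and was left out.

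The main test was edgeR 4.0.16 (R 4.3.3) with TMM, filterByExpr, the quasi-likelihood F test and Benjamini-Hochberg adjustment, checked on simulated data. Standard errors are over mice, from log2 CPM with a prior count of 2, while fold changes are edgeR's fitted values. For genes nearly without reads in a group these are on different scales. Alternatives were other scalings and filters, DESeq2 1.42.0, limma 3.58.1 (voom, log2(RPKM + 1), log2(RPKM + 0.1)), ranges of mouse numbers as a term, removal of a lowess trend over gene length within each library, each mouse left out, and 1 combination added after seeing the data. Exact tests used scipy 1.17.1.

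The members and lists were chosen with earlier results of these data known. All 10 genes are named. Each list names its 3 called members with the smallest adjusted p, and each marker list its members at 0 and its 2 highest. Other list members were named after their values were seen. List counts and medians leave out some genes, which are not reported here. Profiles are given for 3 of the 5 members compared. Coordinates and sequences are from RefSeq (GRCm38.p6), where 7 of the 10 genes have a window, and gene overlaps from GENCODE M21.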

Additional observations from a re-analysis of the deposited data

Results flagged for a closer look

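Among 38 sets of 5 mice (10 genes and 9 marker sums in each group), 3 had a mouse whose gap to its nearest neighbour was more than 0.710 of the whole range. For normally distributed values, chance gives about 1 in 20 such sets. Stab1 in LPS mouse 4 had 1842 CPM, with the gap at 0.725 of the range. Marco in saline mouse 5 had 0.0712 CPM and Cd163 in LPS mouse 3 had 0.0776 CPM. Each of these last values is a single read in a group whose other libraries had none. The gap is then the whole range by arithmetic, and the rate for normally distributed values does not apply.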

How the results depend on the processing

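The calls of Msr1 and Marco and the absence of a call for Scarb2, Cd36 and Olr1 held under 12 alternatives (10 for Cd36 and Olr1, which are below the RPKM filter) and in the 10 fits without 1 mouse. No paired analysis was possible because the labels give the groups no shared replicate numbers. The cause of the changes below was not tested, except that removing the length trend works through length by construction.

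With the length trend removed the log2 fold change of Cd68 was -0.011 (adjusted p = 0.951), and with LPS replicate 4 also left out, a combination chosen after seeing the data, it was -0.0030 for Cd68, -0.067 for Scarb2 and 0.49 for Olr1. Scarb1 was not called with upper quartile scaling (0.46), library size only (0.38) or no filter (0.45), and its values without 1 mouse were 0.36 to 0.59. Stab1 was not called with library size only (0.54), ranges of mouse numbers as a term (0.51) or limma-voom (0.55), with 0.33 to 0.75 without 1 mouse. Its calls without 1 mouse were lost when saline replicates 1, 2, 3 or 5 or LPS replicate 4 were left out. Olr1, near 0, changed sign with RLE (0.029), upper quartile (0.0027), the CPM filter (0.014), the mouse number term (0.32), DESeq2 (0.023), log2(RPKM + 1) without a filter (0.0069) and the length trend removed (0.17), and lay at -0.35 to 0.31 without 1 mouse.

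The number of scavenger receptor genes called higher was 3 with library size only and 3 to 5 without 1 mouse, falling to 3 without saline replicate 1, 2 or 5. The number called lower was 1 without a filter, namely Cd163. Of the other receptors 1 was called lower with log2(RPKM + 1), 1 with log2(RPKM + 0.1) and 1 with the length trend removed. Signalling partners called lower were 3 with the length trend removed, and those called higher were 1 to 3 without 1 mouse, the 1 without saline replicate 1. Lysosomal partners called lower were 3 with library size only, 0 with log2(RPKM + 1) without a filter and 2 with the length trend removed. Over all genes the calls were 2653 to 3728 higher and 2431 to 3482 lower under these alternatives. Genes with fewer than 10 reads per library, Cd163 and Cd93, are limited by depth.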
